A study of Mus musculus with 7 samples.

Results

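The genes described here are 8 receptors that steer T cells between blood, lymphoid organs and tissue: the chemokine receptors Ccr7, Ccr9, Ccr2, Cxcr3, Cxcr4, Cxcr5 and Cxcr6, and S1pr1, a receptor for sphingosine 1-phosphate (S1P). They were taken by name, with every probe set that the platform annotation gives to that single symbol, which came to 16 of the 45101 probe sets on the array and 8 of 18194 named genes. RNA was measured on 7 Affymetrix arrays. The cells were OT-I, CD8 T cells that carry a transgenic antigen receptor for an ovalbumin peptide. Naive (CD44lo) OT-I cells carrying the Ly5.1 marker were stained with CFSE, a dye diluted by each division, and injected into hosts of 4 kinds. The naive group (n = 2) is undivided cells from spleens of B6 hosts without the antigen, taken after 60 h, each array from a pool of 10 mice. The RIP-OVAhi group (n = 2) is cells that had divided at least 2 times within 60 h in hosts with ovalbumin under the rat insulin promoter, a model of deletional tolerance, from sacral and pancreatic lymph nodes of 20 pooled mice. The OCS/LPS group (n = 2) is cells that had divided at least 2 times within 60 h in hosts given ovalbumin-coated splenocytes and lipopolysaccharide, a model of immunity, from spleens of 10 pooled mice. The Rag group (n = 1) is cells that had divided at least 2 times within 5 days in Rag-/- hosts, which have no endogenous T or B lymphocytes and drive division by lymphopenia, from spleens of 10 pooled mice. RIP-OVAhi is therefore the only lymph node group, and for these homing genes tissue and tolerance cannot be told apart. The Rag group differs from the others in time as well, and has no replicate.

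Chemokine receptors are G protein-coupled receptors that sense gradients of small secreted proteins and direct a cell's movement through the inhibitory Gi proteins. Naive T cells use CCR7, which binds CCL19 and CCL21, to enter and move in lymph nodes and splenic T zones, and S1PR1 to leave them towards the S1P of blood and lymph. After antigen, T cells usually lose part of this programme and gain receptors for inflamed tissue, such as CXCR3, the receptor of the interferon-induced chemokines CXCL9 and CXCL10. CXCR5 binds CXCL13 of B cell follicles, CCR9 binds CCL25 of thymus and small intestine, CXCR6 binds CXCL16, CXCR4 binds CXCL12 of bone marrow and stroma, and CCR2 binds CCL2 and is best known from monocytes.

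Values are log2 expression, on which 1 unit is a doubling, and values under log2 5 are called near background. Array medians were 2.97 to 3.08, and 33.7% to 34.5% of probe sets per array reached log2 5. All 11 T cell markers on the array lay at log2 5 or more on every array. The CD4 and regulatory T cell markers Cd4, Foxp3 and Cd40lg were near background throughout. Transcripts of other cells varied with the host: of 12 macrophage and monocyte markers, 0 reached log2 5 in RIP-OVAhi, 2 or 3 in naive, 2 in OCS/LPS and 6 in Rag. Their summed level, as log2 of the summed linear values, was 6.60 to 6.82 in RIP-OVAhi, 8.53 to 9.16 in naive, 8.22 to 8.81 in OCS/LPS and 10.30 in Rag. Xist, expressed from the inactive X chromosome of females, was above log2 5 on the 3 arrays numbered 2 and on 0 of the 4 arrays numbered 1. Its values were 2.67 to 2.74 on arrays numbered 1 and 12.73 to 13.01 on arrays numbered 2. The arrays of a group therefore did not share 1 pool of cells. The single Rag array is numbered 1, while each other group holds an array of each number. Differences from Rag are thus mixed in part with this split. The labels do not say how replicates were otherwise kept apart, so a p-value here reflects array-to-array spread, which may be partly technical. Because the arrays hold bulk RNA, fewer cells expressing a receptor and less RNA per cell cannot be told apart.

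Of the 8 genes, 7 passed the filter on low values (log2 5 or more in at least 2 arrays) and were tested; Ccr2 did not pass. Ccr9 passed through the naive, RIP-OVAhi and Rag arrays and Cxcr5 through the RIP-OVAhi and OCS/LPS arrays alone, so the counts that follow are descriptions. Against naive cells in RIP-OVAhi, 2 of the 7 were higher and 4 lower, where limma called 29.6% of all 8203 tested genes, 18.1% higher and 11.6% lower. The OCS/LPS cells had 2 higher and 5 lower, beside 32.9% of all genes called, 20.5% higher and 12.3% lower. The single Rag array gave 1 higher and 1 lower, beside 2.73% of all genes, 2.15% higher and 0.585% lower. The median log2 difference of the 7 genes from naive was -0.91 for RIP-OVAhi, -0.96 for OCS/LPS and -0.77 for Rag, beside 0.06, 0.08 and 0.04 over all tested genes. Directly compared, RIP-OVAhi had 1 receptor higher and 1 lower than OCS/LPS, with 2.91% of all genes called, 1.61% higher and 1.3% lower. It had 1 higher and 0 lower than Rag, with 16.7% of all genes called, 9.84% higher and 6.9% lower. OCS/LPS had 2 higher and 0 lower than Rag, with 18.1% called, 11.2% higher and 6.9% lower. Centring the arrays on their medians shifted all differences from naive by -0.12 (RIP-OVAhi), -0.15 (OCS/LPS) and -0.06 (Rag). It turned the split of all genes called from 1481 higher and 948 lower to 1192 and 1296 in RIP-OVAhi, from 1685 and 1013 to 1340 and 1461 in OCS/LPS, and from 176 and 48 to 195 and 90 in Rag. It reversed the direction of none of the 7 receptor genes in any of the 6 comparisons. The comparisons with naive share the same 2 naive arrays. With 1 or 2 arrays a group, groups can stand apart even at a small difference. The signalling gene Cdc42 did so between RIP-OVAhi and Rag (-0.04). A lack of overlap is therefore only a description below, and its share over all genes was not counted.

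**Figure D1:**
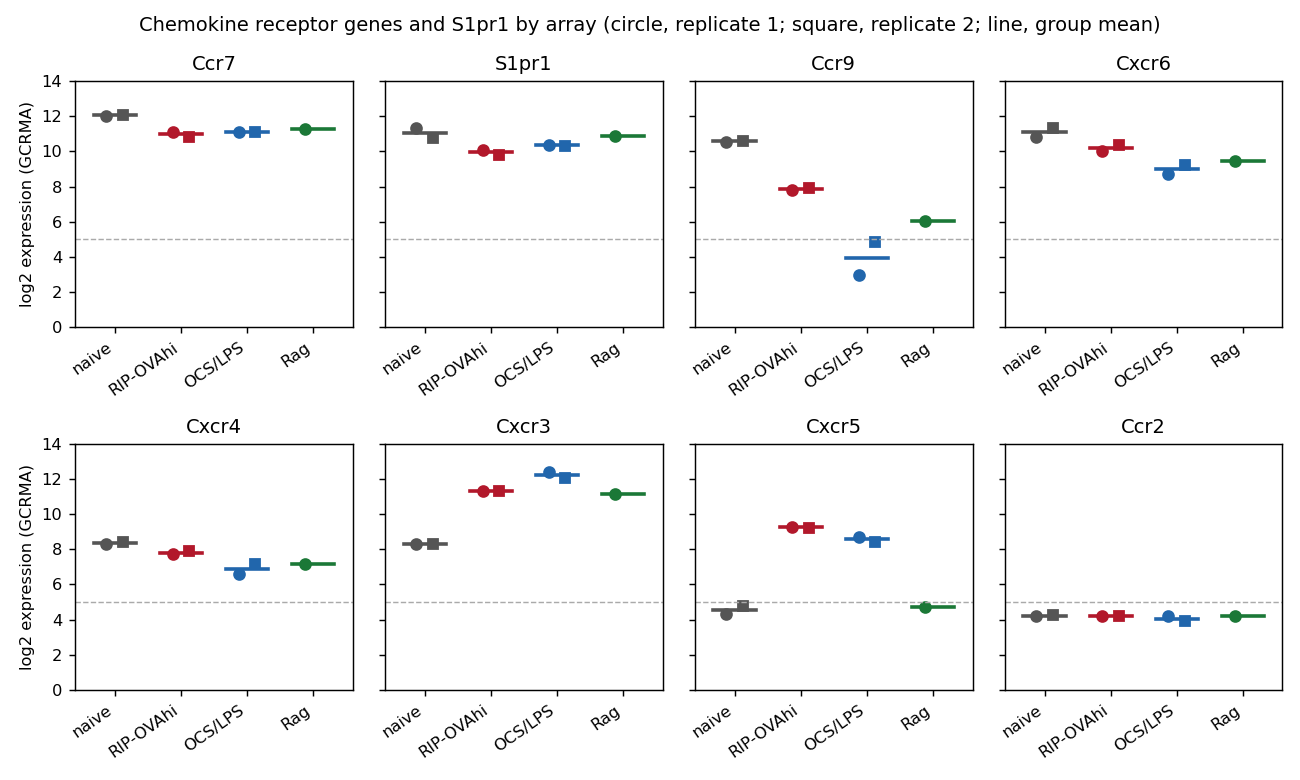
Log2 expression (GCRMA) of each of the 8 genes, by its brightest probe set, on the 7 arrays; each point is 1 array, the short line is the group mean and the dashed line is log2 5. Ccr7, S1pr1, Ccr9, Cxcr6 and Cxcr4 have their highest group mean in naive cells, Cxcr3 is higher in every divided group, Cxcr5 is high in RIP-OVAhi and OCS/LPS alone, and Ccr2 stays under the dashed line.

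Ccr7, the lymph node entry receptor, fell in RIP-OVAhi and OCS/LPS cells and stayed far above background in both. Its values were 12.02 and 12.10 (naive), 11.12 and 10.82 (RIP-OVAhi), 11.11 and 11.08 (OCS/LPS) and 11.29 (Rag). Both naive arrays lay above all 5 divided arrays. In RIP-OVAhi the level was 2.13-fold lower (log2 difference -1.09, SE 0.14, limma adjusted p = 0.00353), a call kept in every alternative run. In OCS/LPS the level was 1.95-fold lower (-0.96, SE 0.14, adjusted p = 0.0048); leaving out OCS/LPS replicate 2 ended that call (adjusted p = 0.0502). In Rag the difference was -0.77 (SE 0.17) and was not called (adjusted p = 0.0908; 0.0446 without naive replicate 1). The divided groups did not differ beyond their spread: RIP-OVAhi minus OCS/LPS was -0.13 (95% interval -0.47 to 0.22).

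S1pr1, the egress receptor, fell in RIP-OVAhi and, less securely, in OCS/LPS. Its values were 11.34 and 10.78 (naive), 10.06 and 9.82 (RIP-OVAhi), 10.38 and 10.29 (OCS/LPS) and 10.86 (Rag). The 4 arrays of the antigen-driven groups lay below both naive arrays, and the Rag value lay between the naive ones. In RIP-OVAhi the level was 2.17-fold lower (-1.12, SE 0.21, limma adjusted p = 0.0124), a call lost without either RIP-OVAhi array (0.066 and 0.104) and with no filter on low values (0.0659). In OCS/LPS it was 1.65-fold lower (-0.72, SE 0.21, adjusted p = 0.0452). That call was lost with no filter (0.16), when only the 2 groups were fitted (0.0926), and without naive replicate 1 (-0.44, 0.068), either RIP-OVAhi array (0.0926) or either OCS/LPS array (0.155 and 0.206). Rag minus naive was -0.20 (95% interval -0.83 to 0.43). RIP-OVAhi minus Rag was -0.92 (SE 0.26) and not called (adjusted p = 0.062), but it passed without either naive array (0.0143) and with a trend and robust prior (0.0494). RIP-OVAhi minus OCS/LPS was -0.40 (95% interval -0.91 to 0.12). The naive arrays differed by 0.56 in S1pr1, the widest replicate gap of the 3 groups for this gene.

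Of the 14 genes listed as S1P receptors, enzymes and regulators, 7 were tested; against naive, 2 were lower and 0 higher for RIP-OVAhi, 3 and 0 for OCS/LPS and 0 and 0 for Rag, with medians of -0.07, -0.11 and -0.11. Over all tested genes 29.6%, 32.9% and 2.73% were called in these comparisons, so the S1P list's share in RIP-OVAhi was near the background. Klf2, a transcription factor that activates S1pr1 in naive T cells, had 12.29 and 12.34 (naive), 11.04 and 11.18 (RIP-OVAhi), 11.79 and 11.38 (OCS/LPS) and 12.09 (Rag). Klf2 stood lowest in RIP-OVAhi, but its difference there from OCS/LPS was -0.47 (SE 0.17) and not called (limma adjusted p = 0.245). It fell by 1.21 in RIP-OVAhi (SE 0.17, limma adjusted p = 0.00465; 0.0524 without RIP-OVAhi replicate 1) and by 0.73 in OCS/LPS (SE 0.17, 0.0213). The OCS/LPS call was lost without OCS/LPS replicate 2 (-0.52, 0.109), without either RIP-OVAhi array (0.0587), with no filter (0.0734) and when only the 2 groups were fitted (0.0587). Klf2 was also lower in RIP-OVAhi than in Rag (-0.98, SE 0.21, adjusted p = 0.028). That call did not hold with the replicate block (-0.94, 0.0589), with no filter (0.086) or without either RIP-OVAhi array (0.144 and 0.122). Cd69, whose protein binds S1PR1 and removes it from the surface, is usually described as rising early after activation. Here it had 11.00 and 11.27 (naive), 9.82 and 9.90 (RIP-OVAhi), 9.83 and 9.66 (OCS/LPS) and 10.80 (Rag). It fell by 1.27 in RIP-OVAhi (SE 0.15, adjusted p = 0.00232) and by 1.39 in OCS/LPS (SE 0.15, adjusted p = 0.00141), both kept in every alternative run.

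Ccr9, Cxcr6 and Cxcr4 had one order of group means, with naive highest, RIP-OVAhi next, then Rag, and OCS/LPS lowest, although Rag was not called different from either neighbour for any of the 3 genes. Ccr9, the gut and thymus homing receptor, had the largest single difference of the 7 tested genes, between OCS/LPS and naive. By the brightest of its 5 probe sets the values were 10.51 and 10.62 (naive), 7.80 and 7.92 (RIP-OVAhi), 6.06 (Rag) and 2.98 and 4.86 (OCS/LPS). The groups did not overlap, and only OCS/LPS lay near background. The difference from naive was -6.65 in OCS/LPS (SE 0.56, limma adjusted p = 0.000609), called in every alternative run, and -5.56 when values under log2 5 were set to 5. It was -2.71 in RIP-OVAhi (SE 0.56, adjusted p = 0.0166). This call was lost when either naive array (0.0508 and 0.0555) or either RIP-OVAhi array (0.112 and 0.109) was left out, and with no filter (0.108). In Rag it was -4.51 (SE 0.69, adjusted p = 0.0317), lost without naive replicate 2 (0.0882), without either RIP-OVAhi array (0.136) and with no filter (0.144). The SE of 0.56 goes with the gap of 1.88 between the OCS/LPS arrays, which lies wholly under log2 5; with such values set to 5 the RIP-OVAhi and Rag differences had adjusted p = 7.64e-05 and 0.00041.

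Ccr9 was higher in RIP-OVAhi than in OCS/LPS cells, by 2.86 on the log2 scale with values under log2 5 set to 5 (limma adjusted p = 0.000503). The unfloored difference was 3.94 (SE 0.56, adjusted p = 0.0259), but its size is not a measured fold, since both OCS/LPS values lay under log2 5. The call was lost without either RIP-OVAhi array (0.243 and 0.245) and with no filter (0.165). RIP-OVAhi minus Rag was 1.80 (SE 0.69, adjusted p = 0.132), called without either OCS/LPS array (0.0114) and with the floor at 5 (0.00117). OCS/LPS minus Rag was -2.14 (SE 0.69, adjusted p = 0.0842); it was called without OCS/LPS replicate 1 (-1.20, 0.044) or 2 (-3.08, 0.00917) and with the floor at 5 (-1.06, 0.00707).

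The brightest Ccr9 probe set, 1427419_x_at, carries the suffix that Affymetrix gives to sets with probes that also match other transcripts. The next, 1421920_a_at, had 7.97 and 8.02 (naive), 4.23 and 5.25 (RIP-OVAhi), 3.59 (Rag) and 2.88 and 3.24 (OCS/LPS). Fitted on its own, it too was lower than naive in RIP-OVAhi (-3.25, SE 0.34, limma adjusted p = 0.00199), OCS/LPS (-4.93, SE 0.34, 0.000365) and Rag (-4.40, SE 0.41, 0.0088). Its RIP-OVAhi minus OCS/LPS difference was 1.68 (SE 0.34, adjusted p = 0.0832), with the groups apart but mostly near background. Probe set 1436065_at had 5.98 and 5.47 in the naive arrays and 3.85 to 4.06 in the divided ones. It passed the filter through the naive arrays alone, so its higher naive level is a description, and the divided groups cannot be ordered by it. The other 2 Ccr9 probe sets did not pass the filter; their highest values, 4.94 and 5.35, were both in naive arrays. The step between RIP-OVAhi and OCS/LPS was called by the brightest Ccr9 probe set alone. Plasmacytoid dendritic cells also express Ccr9. Of their 5 markers, Siglech lay at 2.01 to 2.05 on all arrays. Tcf4 reached 5.22 in naive replicate 2 and lay at 3.54 to 3.80 elsewhere. Klk1 stayed close to log2 5 throughout, at 4.95 to 5.05. Up to 2 of the 5 reached log2 5 on a naive array and up to 1 on a RIP-OVAhi array, but 0 did so on any other array. How far such cells contributed to the Ccr9 values was not tested. The summed level of the 5 plasmacytoid dendritic cell markers was 6.00 to 6.47 in naive, 5.96 to 5.98 in RIP-OVAhi, 5.91 to 5.94 in OCS/LPS and 5.93 in Rag.

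**Figure D2:**
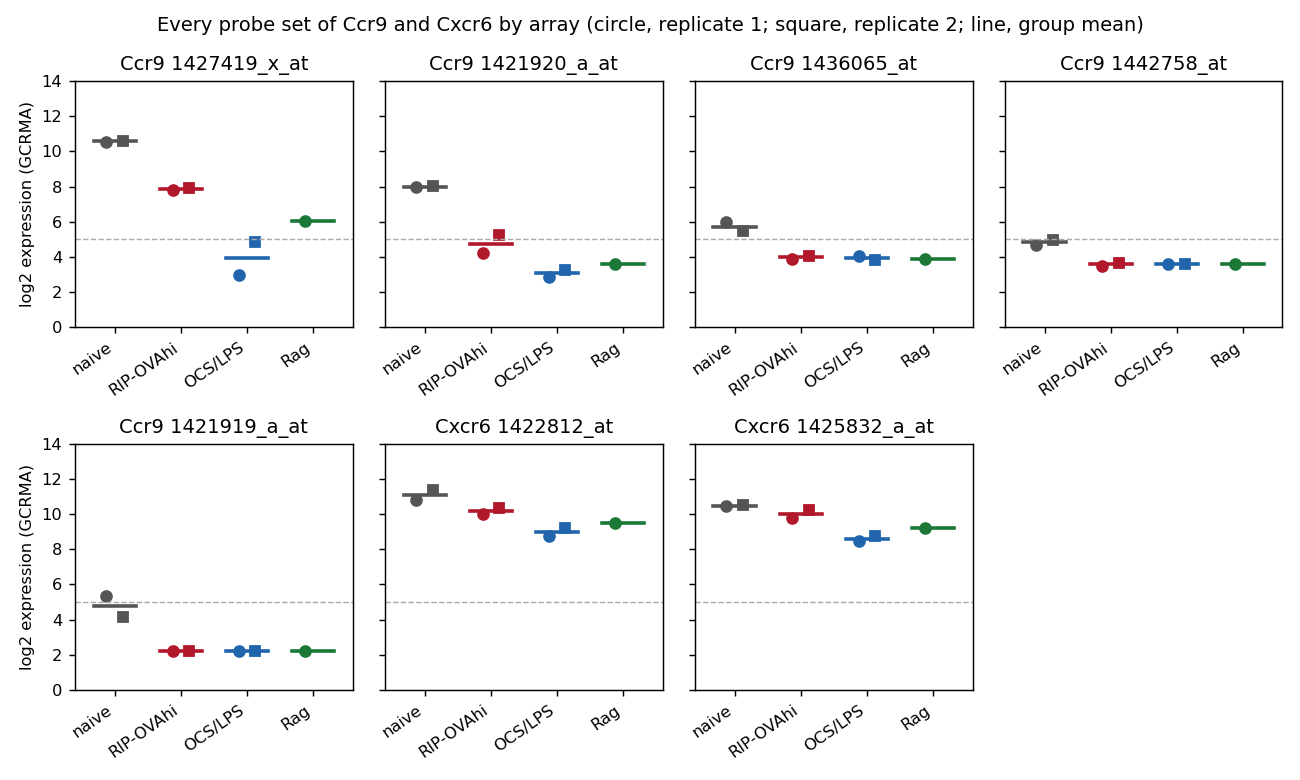
Log2 expression (GCRMA) of the 5 probe sets of Ccr9 and the 2 of Cxcr6 on the 7 arrays; each point is 1 array, the short line is the group mean and the dashed line is log2 5. Every Ccr9 probe set has its highest group mean in naive cells, and RIP-OVAhi stands above OCS/LPS in the 2 brightest Ccr9 sets and in both Cxcr6 sets.

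Cxcr6, best known from effector and tissue-resident T cells, was present in undivided naive OT-I cells and was lower after division. Its brighter probe set had 10.81 and 11.35 (naive), 10.01 and 10.33 (RIP-OVAhi), 9.48 (Rag) and 8.74 and 9.23 (OCS/LPS). No 2 groups overlapped, though with 1 or 2 arrays a group this is weak evidence of an order. The level fell 4.28-fold in OCS/LPS (-2.10, SE 0.26, limma adjusted p = 0.00261), a call kept in every alternative run. In RIP-OVAhi the difference was -0.91 (SE 0.26, adjusted p = 0.0442). It lost its call without naive replicate 2 (-0.64, 0.119), with either RIP-OVAhi array left out (0.232 and 0.128), without either OCS/LPS array or when only the 2 groups were fitted (0.069), and with no filter (0.18). The second probe set, 1425832_a_at, had 10.47 and 10.50 (naive), 9.76 and 10.22 (RIP-OVAhi), 9.20 (Rag) and 8.47 and 8.74 (OCS/LPS). It gave -1.88 in OCS/LPS (SE 0.19, adjusted p = 0.00163) and -0.49 in RIP-OVAhi (SE 0.19, adjusted p = 0.116). In Rag the brighter set differed from naive by -1.60 (SE 0.31, adjusted p = 0.0641). The Rag difference was called with the replicate number as a block (-1.37, 0.0251), without naive replicate 1 (-1.87, 0.0268), with arrays centred (-1.66, 0.0362), with the mean of both probe sets (-1.44, 0.048) and with a trend and robust prior (0.0498).

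RIP-OVAhi cells had 1.19 more Cxcr6 than OCS/LPS cells on the log2 scale (SE 0.26), which did not pass in the fit without the block (limma adjusted p = 0.0865) and passed with it (1.19, adjusted p = 0.02). It also passed with arrays centred (0.0486) and with the mean of both probe sets (1.29, 0.0378). The second probe set alone gave 1.39 (SE 0.19, adjusted p = 0.0324). Every RIP-OVAhi array lay above every OCS/LPS array in both sets.

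Cxcr4, the CXCL12 receptor, was measured by 1 probe set, with 8.30 and 8.43 (naive), 7.71 and 7.90 (RIP-OVAhi), 7.17 (Rag) and 6.59 and 7.14 (OCS/LPS). No 2 groups overlapped, though Rag and the higher OCS/LPS array nearly met. The level was 2.84-fold lower than naive in OCS/LPS (-1.50, SE 0.21, limma adjusted p = 0.00392), in every alternative run. The differences of -0.56 in RIP-OVAhi (SE 0.21, adjusted p = 0.091) and -1.20 in Rag (SE 0.25, adjusted p = 0.0774) were not called, and both were called once arrays were centred (-0.69, 0.0351, and -1.25, 0.0436). RIP-OVAhi minus OCS/LPS was 0.94 (SE 0.21, adjusted p = 0.0915; 95% interval 0.43 to 1.45 before adjustment).

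Ccr9, Cxcr6 and Cxcr4 had their lowest group mean in OCS/LPS. The 250 bases before the RefSeq start (GRCm38.p6) are shown for each, followed by Cxcr3, which was higher there than in naive. RefSeq promoter entries matched 5 of the 8 genes, and these 4 are printed. Each reads 5′ to 3′ on the gene's strand, and capitals mark matches on either strand to CCACCC (KLF factors), TCACAC (T-box factors), ACCACA (RUNX factors) or GTAAACA (FOXO factors). The regions are chr1:128592300-128592549 (minus strand) for Cxcr4, chr9:123806227-123806476 (plus) for Cxcr6, chr9:123766961-123767210 (plus) for Ccr9 and chrX:101734148-101734397 (minus) for Cxcr3.
Cxcr4: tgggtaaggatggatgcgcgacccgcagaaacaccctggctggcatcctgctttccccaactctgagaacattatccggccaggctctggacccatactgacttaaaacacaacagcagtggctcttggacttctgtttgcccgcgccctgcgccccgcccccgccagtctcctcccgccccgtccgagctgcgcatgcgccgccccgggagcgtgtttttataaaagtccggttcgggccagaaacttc
Cxcr6: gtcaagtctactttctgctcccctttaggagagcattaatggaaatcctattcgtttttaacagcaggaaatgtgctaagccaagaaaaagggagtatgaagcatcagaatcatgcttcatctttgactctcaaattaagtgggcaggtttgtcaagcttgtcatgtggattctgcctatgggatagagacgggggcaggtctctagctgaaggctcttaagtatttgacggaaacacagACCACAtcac
Ccr9: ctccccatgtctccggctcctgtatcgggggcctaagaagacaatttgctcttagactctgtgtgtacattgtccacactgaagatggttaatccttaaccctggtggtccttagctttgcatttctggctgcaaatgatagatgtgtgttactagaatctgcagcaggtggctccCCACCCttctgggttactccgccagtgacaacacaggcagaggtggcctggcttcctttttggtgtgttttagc
Cxcr3: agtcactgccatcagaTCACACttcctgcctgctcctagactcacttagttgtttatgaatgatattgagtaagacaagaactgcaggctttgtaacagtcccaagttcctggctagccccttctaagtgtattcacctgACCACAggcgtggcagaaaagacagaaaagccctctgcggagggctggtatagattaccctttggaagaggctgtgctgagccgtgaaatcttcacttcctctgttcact
Ccr9 held 1 match, to CCACCC, at -74 to -69 from the start. Cxcr6 held 1, to ACCACA, at -10 to -5. Cxcr3 held 2, to TCACAC at -234 to -229 and to ACCACA at -110 to -105. Cxcr4 held 0, and no matches overlapped. Of all 32851 promoter entries, 28.1% hold CCACCC in these 250 bases, 12.3% TCACAC, 14% ACCACA and 3.2% GTAAACA. Such matches are thus common, and Ccr9, Cxcr6 and Cxcr4 share none of these words.

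Cxcr3, the receptor of effector T cells for interferon-induced chemokines, rose in all 3 kinds of divided cell. Its values were 8.27 and 8.32 (naive), 11.33 and 11.31 (RIP-OVAhi), 12.41 and 12.08 (OCS/LPS) and 11.13 (Rag). Every divided array lay far above both naive arrays, and OCS/LPS lay above the rest. The rise over naive was 8.17-fold in RIP-OVAhi (3.03, SE 0.15, limma adjusted p = 9.73e-05), 15.5-fold in OCS/LPS (3.95, SE 0.15, adjusted p = 3.11e-05) and 7.14-fold in Rag (2.84, SE 0.18, adjusted p = 0.00202). These 3 calls held in every alternative run. Over all tested genes, 1.66% were called higher in all 3 divided groups, and Cxcr3 was the 1 of the 7 receptor genes among them; 0.232% were lower in all 3, among them Ccr9. Cxcr3 was 1.89-fold lower in RIP-OVAhi than in OCS/LPS (-0.92, SE 0.15, adjusted p = 0.0354). This call was lost with the replicate block (-0.92, 0.0517), with every probe set fitted on its own (0.0507) and with no filter (0.116). Leaving out RIP-OVAhi replicate 1 or 2 (0.291 and 0.293) or OCS/LPS replicate 1 or 2 (0.205 and 0.128) also ended it. OCS/LPS was higher than Rag (1.11, SE 0.18, adjusted p = 0.0128), a call lost without either RIP-OVAhi array (0.0536) or OCS/LPS replicate 1 (0.0591). RIP-OVAhi minus Rag was 0.19 (95% interval -0.25 to 0.64). Cxcr3 lies on the X chromosome; the arrays numbered 1 and 2, which differ in Xist, were 0.05 apart in the naive group, 0.02 apart in RIP-OVAhi and 0.34 apart in OCS/LPS.

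Cxcr5, the follicle homing receptor of B cells and follicular helper T cells, rose in the antigen-driven cells from a naive level near background. Its 1 probe set had 4.35 and 4.78 (naive), 4.73 (Rag), 9.29 and 9.20 (RIP-OVAhi) and 8.69 and 8.44 (OCS/LPS). Both RIP-OVAhi and both OCS/LPS arrays stood above log2 8, and the naive and Rag arrays stood under log2 5. The difference from naive was 4.68 in RIP-OVAhi (SE 0.18, limma adjusted p = 5.31e-05) and 4.0 in OCS/LPS (SE 0.18, adjusted p = 6.21e-05), or 4.25 and 3.56 with values under log2 5 set to 5. Against Rag the differences were 4.51 (SE 0.23, adjusted p = 0.000374) and 3.83 (SE 0.23, adjusted p = 0.000505), and again 4.25 and 3.56 with that floor. These 4 differences are descriptions, since Cxcr5 passed the filter through the RIP-OVAhi and OCS/LPS arrays alone. Rag minus naive was 0.17 (95% interval -0.39 to 0.72), with all 3 values near background. RIP-OVAhi minus OCS/LPS was 0.68 (SE 0.18), with both RIP-OVAhi arrays above both OCS/LPS arrays, but was not called (adjusted p = 0.152). B cells also express Cxcr5. Of the 9 B cell markers on the array, Cd79a, Pax5, Blk, Fcrla, Cr2 and Ebf1 were near background on every array, Cd79a at 2.14 to 2.24 and Pax5 at 1.98 to 2.02. The number at log2 5 or more was 1 or 2 in naive, 2 in RIP-OVAhi, 2 or 3 in OCS/LPS and 1 in Rag. Cd79b lay between 6.84 and 8.43 on all 7 arrays. Ms4a1 exceeded log2 5 in naive replicate 2 (5.72) and OCS/LPS replicate 2 (6.67). Cd22 moved with Cxcr5, at 6.53 and 7.03 in RIP-OVAhi and 8.20 and 8.55 in OCS/LPS against 3.59 to 4.28 in naive and Rag. The summed level of the list was 7.75 to 8.68 in naive, 8.56 to 9.04 in RIP-OVAhi, 9.35 to 9.74 in OCS/LPS and 7.50 in Rag. The part of B cell transcripts in the Cxcr5 values was not tested.

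**Figure D3:**
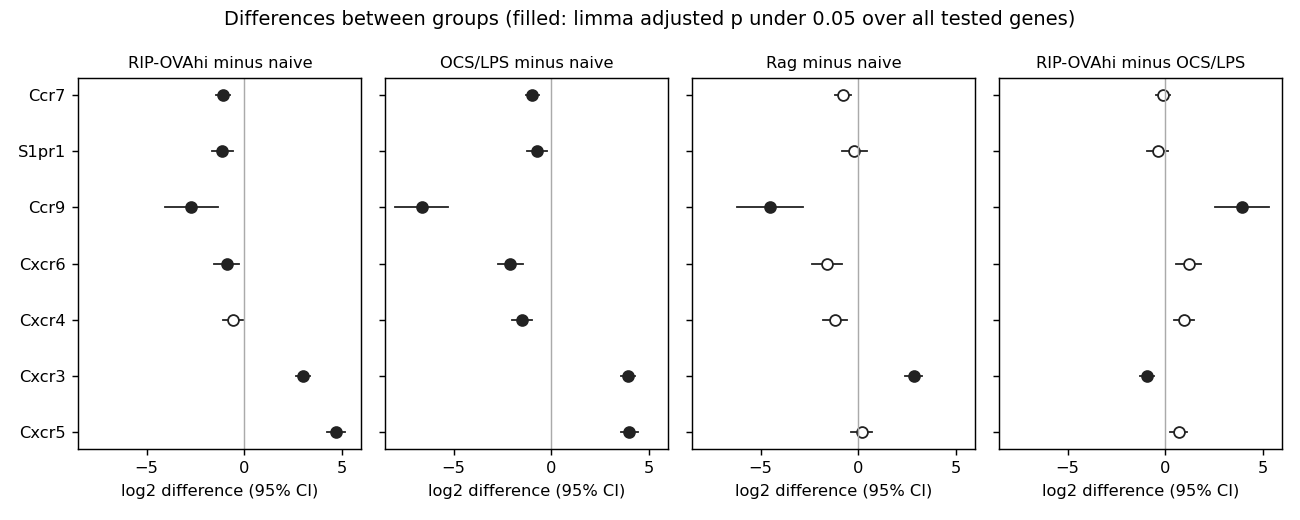
Log2 differences of the 7 tested genes in 4 comparisons, with 95% intervals from the limma fit before adjustment; filled points have an adjusted p under 0.05 over the 8203 tested genes. Cxcr3 lies right of 0 in all 3 comparisons with naive, Cxcr5 with filled points in the comparisons of RIP-OVAhi and OCS/LPS with naive, and Ccr9 has the widest intervals.

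Ccr2, the CCL2 receptor, was near background in every group. The brightest of its 4 probe sets had 4.21 and 4.24 (naive), 4.19 and 4.20 (RIP-OVAhi), 4.20 and 3.90 (OCS/LPS) and 4.20 (Rag). The groups could not be told apart at this level; in the fit without a filter, RIP-OVAhi minus naive was -0.03 (95% interval -0.30 to 0.23). The 1421186_at set read 4.60 in Rag and 4.26 in OCS/LPS replicate 2 against 3.41 to 3.74 on the other arrays, all under log2 5. Of the 12 macrophage and monocyte markers, 6 reached log2 5 in Rag. Csf1r (8.51) and Mpeg1 (7.58) lay at 2.44 to 2.56 and 2.66 to 3.25 on all other arrays, OCS/LPS replicate 2 among them. Lyz1 (8.46) and Lyz2 (5.79) were higher in naive replicate 2 (8.67 and 6.06) than in Rag. Cd14, Itgam and Cd68 were near background in Rag. The part of these cells in the 1421186_at readings was not tested. The other 2 sets stayed between 2.45 and 2.51.

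Other receptors of this kind were mostly silent on these arrays. Of 18 further chemokine and related receptors listed, 16 were on the array under a single symbol and 15 of these, among them Ccr4, Ccr6, Ccr8 and Cx3cr1, did not pass the filter. The 1 tested was Gpr183, an oxysterol receptor that guides lymphocytes to the edges of follicles and T zones. It had 9.13 and 9.38 (naive), 8.10 and 7.53 (RIP-OVAhi), 9.41 and 8.96 (OCS/LPS) and 8.84 (Rag). The RIP-OVAhi arrays stood apart below all the others. It was lower than naive in RIP-OVAhi (-1.44, SE 0.25, limma adjusted p = 0.00928; 0.067 without RIP-OVAhi replicate 2 and 0.0606 with no filter). RIP-OVAhi minus OCS/LPS was -1.37 (SE 0.25, adjusted p = 0.0507, and 0.0477 with the replicate block). Of 13 ligands of these receptors, 10 were on the array and 1, Cxcl10, was tested. It lay at 4.63 to 6.23 and was highest in Rag. Cxcl10 was lower than naive in RIP-OVAhi (-0.75, SE 0.19, adjusted p = 0.0333), where both values (4.72 and 4.63) were near background. Macrophage and monocyte transcripts were also highest in Rag and lowest in RIP-OVAhi, and their part in Cxcl10 was not tested.

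The receptors signal through Gi proteins, which RGS proteins switch off. Of 35 genes listed for receptor signalling, 29 were tested; against naive, 7 were higher and 3 lower for RIP-OVAhi, 7 and 3 for OCS/LPS and 0 and 0 for Rag. Their medians were 0.22, 0.23 and 0.07, and the shares called were near those of all tested genes (29.6%, 32.9% and 2.73%). Between RIP-OVAhi and OCS/LPS, 3 were called, all higher in RIP-OVAhi, beside 2.91% of all tested genes called and 1.61% higher. All were RGS genes: Rgs16, Rgs1 and Rgs2. The other tested RGS genes, Rgs10 (0.59), Rgs14 (0.09) and Rgs19 (-0.18), were not called. Rgs16 had 8.61 and 8.53 in RIP-OVAhi and lay between 3.33 and 4.09 on the other 5 arrays. RIP-OVAhi thus was the only group with Rgs16 above background. Rgs16 passed the filter through the RIP-OVAhi arrays alone, so its higher level there is a description. With values under log2 5 set to 5 it was 3.57 higher in RIP-OVAhi than in OCS/LPS, and unfloored 5.04 higher (SE 0.22). Rgs1 had 5.16 and 6.14 (naive), 8.99 and 9.37 (RIP-OVAhi), 7.02 and 6.95 (OCS/LPS) and 6.30 (Rag). It rose over naive by 3.54 in RIP-OVAhi (SE 0.32, adjusted p = 0.000988), a call that held throughout. Rgs1 in RIP-OVAhi exceeded OCS/LPS by 2.20 (SE 0.32, adjusted p = 0.0275), a call lost with no filter (0.164) and without any 1 of RIP-OVAhi replicates 1 and 2 (0.204 and 0.265) and OCS/LPS replicates 1 and 2 (0.211 and 0.268). Rgs2 had 8.58 and 8.66 (naive), 8.57 and 9.39 (RIP-OVAhi), 7.06 and 6.76 (OCS/LPS) and 7.71 (Rag), so that OCS/LPS stood lowest. Its RIP-OVAhi minus OCS/LPS difference was 2.07 (SE 0.28, adjusted p = 0.0222), not called with no filter (0.14), without RIP-OVAhi replicate 2 (0.0954) or without OCS/LPS replicate 1 or 2 (0.147 and 0.231). Pik3cg, the kinase subunit that G protein-coupled receptors activate, had 6.36 and 6.26 (naive), 7.74 and 7.84 (RIP-OVAhi), 8.16 and 8.12 (OCS/LPS) and 6.69 (Rag). It rose by 1.48 in RIP-OVAhi (SE 0.12, adjusted p = 0.000578) and by 1.83 in OCS/LPS (SE 0.12, adjusted p = 0.000216), in every alternative run.

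Of 18 transcription factors listed for T cell homing, 13 were tested; against naive, 5 were higher and 4 lower for RIP-OVAhi, 2 and 5 for OCS/LPS and 1 and 1 for Rag, with medians of -0.06, -0.41 and 0.17, beside 29.6%, 32.9% and 2.73% of all tested genes called. Tbx21, which encodes T-bet, an activator of Cxcr3 in effector T cells, had 7.19 and 7.02 (naive), 8.91 and 9.04 (RIP-OVAhi), 10.81 and 10.76 (OCS/LPS) and 9.13 (Rag). Its group means had the order of Cxcr3 at both ends, with OCS/LPS highest and naive lowest. Eomes, the other T-box gene of the list, had its highest mean in RIP-OVAhi (11.08) and its lowest in OCS/LPS (10.19). Between these groups it went the other way from Tbx21, by 0.89 (SE 0.14, limma adjusted p = 0.0361). Against naive, Eomes too was higher in RIP-OVAhi (0.81, SE 0.14, limma adjusted p = 0.0104) and not called in OCS/LPS (-0.08, limma adjusted p = 0.687). The part of either gene in the Cxcr3 levels was not tested. Tbx21 rose over naive by 1.87 in RIP-OVAhi (SE 0.13, limma adjusted p = 0.000317), by 3.69 in OCS/LPS (SE 0.13, adjusted p = 2.63e-05) and by 2.03 in Rag (SE 0.16, adjusted p = 0.00311), in every alternative run. RIP-OVAhi was lower than OCS/LPS by -1.81 (SE 0.13, adjusted p = 0.00264), and the adjusted p was 0.061 without RIP-OVAhi replicate 1 and 0.0537 and 0.0515 without OCS/LPS replicate 1 or 2. Of 9 selectin and selectin ligand genes listed, 3 were tested, and 1, the sialyltransferase gene St3gal6, was higher than naive in both RIP-OVAhi (0.92, SE 0.22, adjusted p = 0.0245) and OCS/LPS (1.04, SE 0.22, adjusted p = 0.0153). The Rag difference from naive was of like size but not called (0.97, SE 0.26, adjusted p = 0.143).

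**Figure D4:**
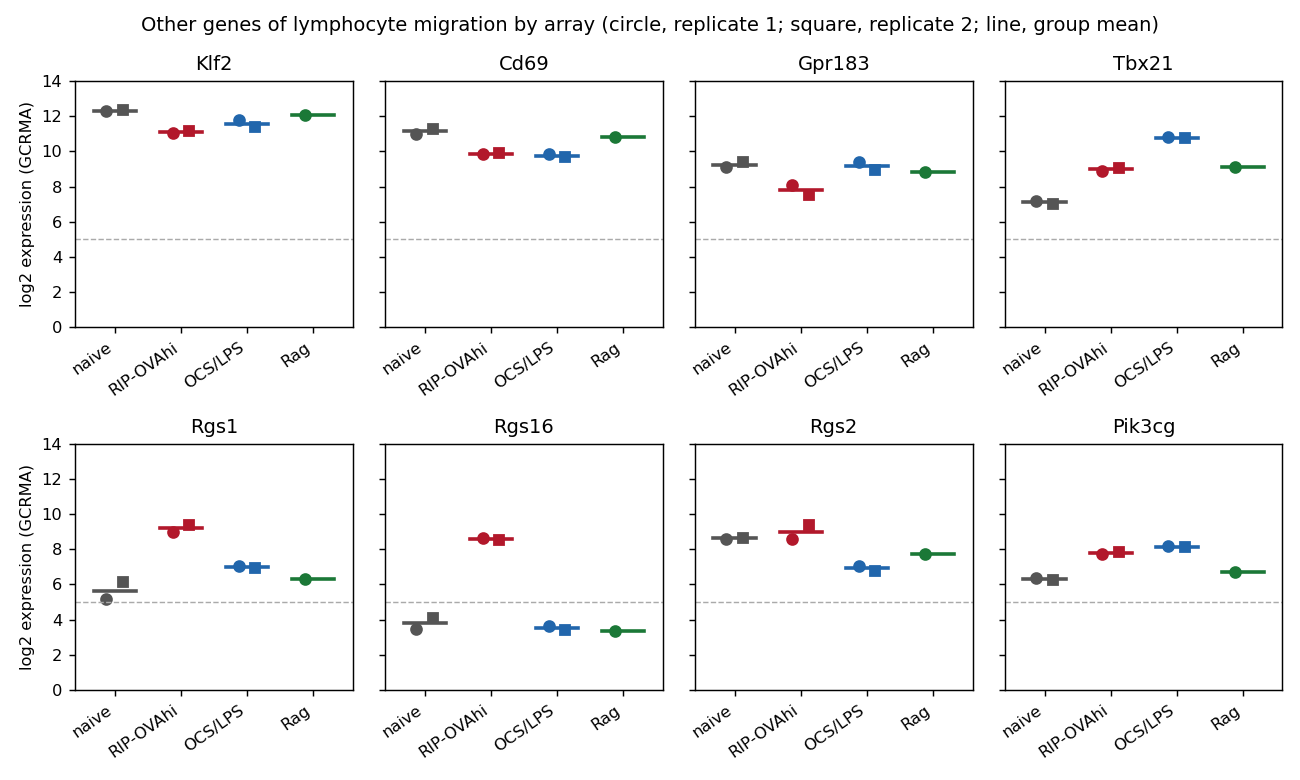
Log2 expression (GCRMA) of 8 other genes of lymphocyte migration on the 7 arrays; each point is 1 array, the short line is the group mean and the dashed line is log2 5. Klf2 and Cd69 are lower in RIP-OVAhi and OCS/LPS, Gpr183 is lowest and Rgs1 and Rgs16 highest in RIP-OVAhi, and Tbx21 is highest in OCS/LPS.

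The tested genes whose pattern over the 7 arrays was most like each receptor's were found by the root mean square (RMS) difference between gene-centred log2 values. Genes picked as nearest lie below the median by that choice, so these distances are descriptions. The median also follows how much the receptor itself varied, as for Cxcr5, with an RMS of 2.14 around its own mean. Cxcr5 was nearest to Pdcd1, the gene of the checkpoint receptor PD-1 (RMS 0.29), Plscr1 (0.29) and Capn3 (0.31), against a median of 2.12 over all other genes. Pdcd1 had 4.08 and 4.40 (naive), 8.49 and 8.38 (RIP-OVAhi), 7.57 and 7.47 (OCS/LPS) and 4.15 (Rag). Cxcr6 and Cxcr4 shared their neighbour Zmat1 (0.15 and 0.22), and Cxcr4 was itself second nearest to Cxcr6 (0.26). Cxcr4 was nearest to Lypd6b (0.16). Cxcr3 was nearest to Slamf7, a receptor of the SLAM family (0.38), the cell cycle factor gene E2f2 (0.41) and Lockd (0.42), against a median of 1.56. Ccr9 had no close neighbour: Cxxc5 (1.16), Ramp1 (1.28) and Xkrx (1.37) came first, against a median of 2.66. Ccr7 was nearest to Pik3ca (0.10), Wdr46 (0.12) and Zkscan8 (0.12), and S1pr1 to C87436 (0.11), Rrm2b (0.12) and Uri1 (0.12), against medians of 0.54 and 0.55. These last distances are small because both receptors themselves varied little, with an RMS of 0.46 and 0.48 around their own means.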

How the data were processed

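The deposited table holds 1 log2 expression value per probe set and array, made by the authors with GCRMA per the submitters' processing notes, with the version not given in the sources used here. Background is corrected by probe sequence in that method, which then quantile-normalizes; a shift common to most genes is removed. Per the labels' protocols, 100 ng of total RNA was amplified in 2 cycles. Values were used as deposited. Scanner files were not analysed here, and the number of arrays limits the precision.

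Symbols came from the platform annotation: 34958 probe sets had 1 symbol, 932 several and 9211 none; 34754 matched RefSeq (GRCm38.p6) by Entrez identifier, 0 symbols changed and 204 were kept as given. The probe set with the highest mean stood for a gene. The 8203 genes at log2 5 or more in at least 2 arrays were fitted in limma 3.58.1 (R 4.3.3), 1 mean per group over all 7 arrays, with 3 residual and 2.93 prior degrees of freedom. The single Rag array was assumed to vary like the others. P-values are two-sided, adjusted by Benjamini-Hochberg over the tested genes in each of 6 comparisons, and called under 0.05. SE is the moderated standard error. The fit was tested on simulated data.

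Over all tested genes, arrays with the same number deviated together (r = 0.35, 0.13 and 0.32 between pairs of groups). Without sex chromosome genes, r was 0.20 for naive with RIP-OVAhi. It was -0.06 and -0.02 for the other pairs, which thus did not deviate together. The number, which also separates arrays by Xist, was fitted as a block in an alternative. The named genes were the 8 receptors, up to 4 genes per list and comparison (called first, then by size), of which a part is described, and the 3 nearest genes. Receptors and lists were chosen with earlier results of these data known.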

Additional observations from a re-analysis of the deposited data

Results flagged for a closer look

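In 5 cases the difference itself between kinds of divided cell passed limma's test. Ccr9 was higher in RIP-OVAhi than in OCS/LPS by 3.94 (SE 0.56, adjusted p = 0.0259, every RIP-OVAhi array above every OCS/LPS array), or by 2.86 with values under log2 5, as both OCS/LPS values were, set to 5. The other 2 tested Ccr9 probe sets were not called (1.68, adjusted p = 0.0832, and 0.03, adjusted p = 0.972), the last with all 4 values under log2 5. Cxcr3 differed by -0.92 in the same comparison (SE 0.15, adjusted p = 0.0354), with both RIP-OVAhi arrays lower. OCS/LPS exceeded Rag in Cxcr3 by 1.11 (SE 0.18, adjusted p = 0.0128). Cxcr5 was higher than in Rag by 4.51 in RIP-OVAhi (SE 0.23, adjusted p = 0.000374) and by 3.83 in OCS/LPS (SE 0.23, adjusted p = 0.000505). With the Rag value set to 5 the differences were 4.25 and 3.56. Since Cxcr5 passed the filter through the RIP-OVAhi and OCS/LPS arrays alone, these differences are descriptions. No group had 4 arrays, so no search for a single outlying array was made.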

How the results depend on the processing

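With each array left out in turn (the Rag array only where Rag was not compared), the receptors called numbered 3 to 6 in RIP-OVAhi minus naive (6 with all arrays), 5 to 7 in OCS/LPS minus naive (7), 1 to 4 in Rag minus naive (2), 0 to 2 in RIP-OVAhi minus OCS/LPS (2), 1 to 2 in RIP-OVAhi minus Rag (1) and 1 to 3 in OCS/LPS minus Rag (2). Over all genes these numbers were 807 to 3281, 1018 to 3646, 59 to 1622, 32 to 416, 370 to 2549 and 397 to 2833. With no filter, limma called 3, 1 and 0 receptors in RIP-OVAhi minus naive, Rag minus naive and RIP-OVAhi minus OCS/LPS, the last with 105 genes. With every probe set on its own, 3866 probe sets were called in RIP-OVAhi minus naive and 4490 in OCS/LPS minus naive, and 4 receptor probe sets (3 of Ccr9, 1 of Cxcr3) in Rag minus naive. Centring gave 4 receptors in Rag minus naive. Fitting only the groups compared gave 1601 genes in RIP-OVAhi minus naive and 416 in RIP-OVAhi minus OCS/LPS. The floor at log2 5, and the trend and robust prior, each gave 2 receptors in RIP-OVAhi minus Rag. With the replicate block 6, 7, 3, 2, 1 and 2 receptors were called in the order first given; apart from Cxcr3 and Cxcr6 between RIP-OVAhi and OCS/LPS and Cxcr6 in Rag, the block changed no other receptor call. Direction reversed in uncalled differences alone: Ccr7, RIP-OVAhi minus OCS/LPS, ranged from -0.273 to 0.0189 with 1 array left out (the latter without RIP-OVAhi replicate 2), Cxcr5, Rag minus naive, from -0.0497 (without naive replicate 1) to 0.388, and S1pr1, Rag minus naive, from -0.478 to 0.083 (without naive replicate 1). The causes were not tested. Leaving out 1 array of a pair leaves a lone array assumed to vary like the other groups, and differences between values under log2 5 cannot be read.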
